A study of Mus musculus with 2 samples.

Results

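Cluster 8 is a group of hepatic lymphocytes that the study named NK and numbered 8 when it clustered its liver immune cells at a resolution of 1.2. It was taken from the deposited cell table by those 2 entries alone, and the clusters themselves had been built on the measurements of these cells. It held 440 of the 11929 cells, with 153 from TG mice and 287 from WT mice. Every cell named NK that was not in cluster 8 lay in cluster 3 (263 TG and 306 WT cells) or cluster 11 (343 TG and 22 WT cells), so these were the cells to which cluster 8 was compared.

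Conventional NK cells are circulating cytotoxic lymphocytes that depend on the transcription factor Eomes, carry the integrin CD49b and kill through perforin and granzymes. The liver also holds type 1 innate lymphoid cells (ILC1), a resident population that shares NK1.1 and NKp46 with NK cells but carries the integrin CD49a, the chemokine receptor Cxcr6 and the death ligand TRAIL. Conventional NK cells also carry receptors of the Ly49 family, encoded by the Klra genes, most of which inhibit killing when they bind MHC class I on a target cell. Each cell switches on its own subset of these genes. Ly49H (Klra8) and Ly49D (Klra4) are activating members that signal through the adaptor DAP12.

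CD45+ cells were isolated from livers of C57BL/6 mice, given as 10 weeks old in the labels (younger in the methods), and each cell gave transcript counts and counts of 49 antibodies, each linked to its own barcode sequence. TG mice carry the transgene dnTGFβRII, in which the CD4 promoter of the mouse drives a human TGF-β type II receptor that acts as a dominant negative, and they model the autoimmune bile duct disease primary biliary cholangitis. WT mice carry no transgene. TG cells were captured in a pool with cells of IFN-γ ARE-Del-/- mice and WT cells in a pool with cells of P40-/-IL-2Ra-/- mice, and cells of those other genotypes were not analysed here. There was 1 library per genotype, so no difference has a replicate check, no test was made, and the genotypes cannot be told apart from their captures. Clusters were made from these same cells, so differences between clusters are a description. The cells were named from transcripts and surface proteins, and the sources used here do not say whether antibodies also entered the clustering. Intervals are exact 95% intervals and cover counting error only. CPM is the number of unique molecules (UMIs) of a gene per 1000000 UMIs of the cell set, and it compares cell sets, not genes with one another.

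Cluster 8 was covered by 565284 UMIs in TG (median 3459 per cell) and 725719 in WT (median 2290 per cell), so TG values rested on deeper cells. The other NK sets held 789237 to 927826 UMIs, except cluster 11 of WT mice, whose 22 cells held 46296. A doublet caller marked 1 TG and 9 WT cells of cluster 8. TG and WT cells shared 36 cell index numbers, of which 2 involved a cluster 8 cell and 0 joined cluster 8 cells on both sides. Some cells named NK held UMIs that go against that name. At least 2 UMIs of Cd3e, Trac and Cd4 together, which are T cell genes, were found in 47 of 153 TG and 17 of 287 WT cells of cluster 8, against 241 of 263 TG and 35 of 306 WT cells of cluster 3, and 335 of 343 TG and 4 of 22 WT cells of cluster 11. The TG cells of clusters 3 and 11 are therefore called by their numbers below. As a background, 106 of 1068 TG and 183 of 1494 WT mature B cells reached this minimum. These genes were chosen after seeing the data. The planned minimum, at least 2 UMIs of T cell receptor genes, was reached by 95 TG and 142 WT cells of cluster 8. It was reached by 261 TG and 278 WT cells of cluster 3 and by 343 TG and 8 WT cells of cluster 11. Of mature B cells, 269 TG and 304 WT cells reached it. Cd4, whose promoter drives the transgene, was detected in 50 TG and 6 WT cells of cluster 8, and Cd3e in 34 and 31. How far Cd4 set the counts of cells with UMIs of Cd3e, Trac and Cd4 was not tested.

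Cluster 8 carried the markers of conventional NK cells. In TG mice Eomes was at 391 CPM in cluster 8, 51.9 in cluster 3 and 59.3 in cluster 11. In WT mice it was at 692, 28.8 and 194 CPM. In both genotypes cluster 8 was the highest of the NK sets. Klra8 was at 1049, 2.53 and 16.2 CPM in TG and at 1711, 20.4 and 324 CPM in WT in the same order. Klra4 was at 945, 2.53 and 3.23 CPM in TG and at 1078, 2.40 and 173 CPM in WT. In TG mice both receptors were at 16.2 CPM or less in clusters 3 and 11. Perforin (Prf1), which opens the target membrane, was at 1364, 248 and 608 CPM in TG and at 1078, 288 and 1598 CPM in WT, so in WT the few cells of cluster 11 were higher. Serpinb9b, a serpin related to the granzyme inhibitor Serpinb9, was at 184, 1.27 and 8.62 CPM in TG and at 147, 0 and 216 CPM in WT. At least 2 UMIs of these 5 genes together were found in 98.0% of TG and 96.9% of WT cells of cluster 8, against 22.4% and 23.5% in cluster 3 and 48.1% and 81.8% in cluster 11.

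**Figure D1:**
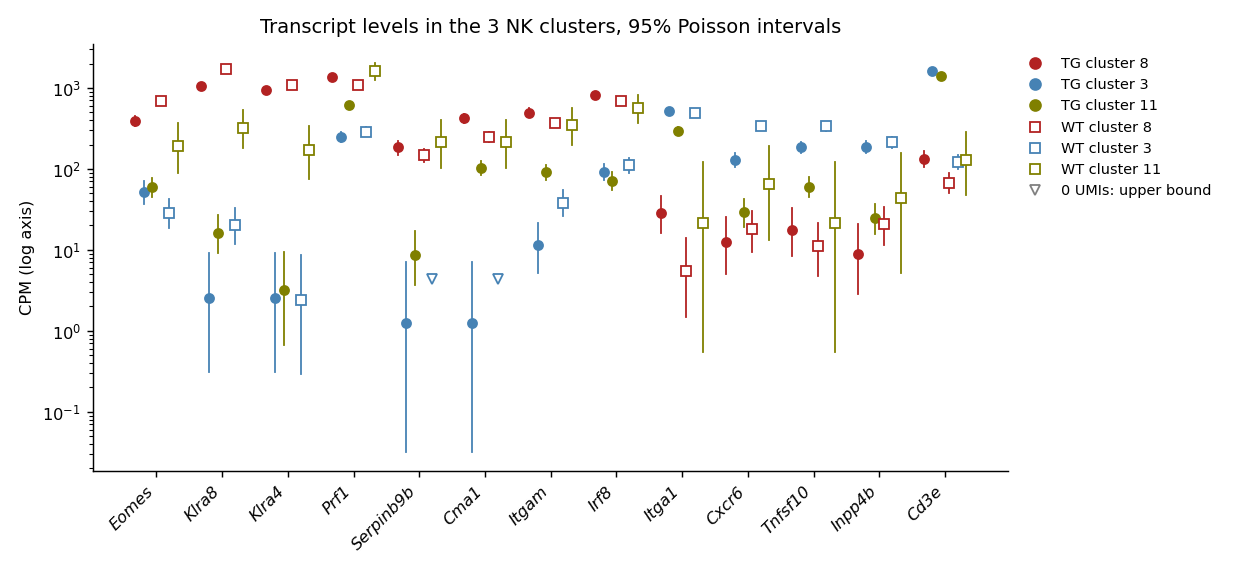
Level of 13 genes in each NK cluster and genotype as CPM on a log axis, with exact 95% Poisson intervals as bars, filled points for TG, open points for WT and open triangles for the upper bound where no UMI was seen. Klra8, Klra4, Serpinb9b and Cma1 were above 100 CPM in cluster 8 of both genotypes and at 20.4 CPM or less in cluster 3, while Itga1, Cxcr6 and Tnfsf10 showed the opposite order.

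Over the named cells of each genotype, a small set carried most transcripts of some of these genes. Cluster 8 held 87.1% of the Klra8 UMIs of all named TG cells and 90.9% of those of all named WT cells, although it was 3.29% and 3.94% of the cells. It held 79.7% and 88.9% of the Klra4 UMIs and 68.9% and 81.7% of the Serpinb9b UMIs. Cma1, which encodes a chymase known from mast cells, had 59.8% of its TG and 85.8% of its WT UMIs in cluster 8. Eomes and Prf1 were spread more widely, with 20.5% and 28.2% of their TG UMIs and 44.8% and 39.7% of their WT UMIs in cluster 8. In TG mice 1 other cluster, number 23, had a higher Eomes level (553 CPM).

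The clusterings that the authors deposited gave different groupings of these cells with and without joining the libraries. With joining, all 440 cells shared 1 cluster of 440 cells at resolutions of 0.6, 0.8, 1 and 2. Without joining, at a lower resolution of 0.4, the 440 cells fell in 5 clusters, so joining and resolution both differed. There, 142 of the 153 TG cells (92.8%) fell in a cluster of 356 cells and 286 of the 287 WT cells (99.7%) in another of 590 cells, so cells of cluster 8 were the smaller part of each.

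Of the 5 marker genes, Klra8 and Klra4 had the largest shares of their UMIs in cluster 8, so the starts of these Ly49 genes are shown. They lie on the minus strand of chromosome 6 (GRCm38), Klra8 at 130115226 to 130129898 and Klra4 at 130043731 to 130067271, with 62627 bases between their starts. The RefSeq windows of GRCm38.p6 from 250 bases before to 50 after the start, at chr6:130129849-130130148 for Klra8 and chr6:130067222-130067521 for Klra4, are printed 5′ to 3′ on the gene strand. Capitals mark the 6 runs of at least 12 bases that are identical in both.

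Klra8: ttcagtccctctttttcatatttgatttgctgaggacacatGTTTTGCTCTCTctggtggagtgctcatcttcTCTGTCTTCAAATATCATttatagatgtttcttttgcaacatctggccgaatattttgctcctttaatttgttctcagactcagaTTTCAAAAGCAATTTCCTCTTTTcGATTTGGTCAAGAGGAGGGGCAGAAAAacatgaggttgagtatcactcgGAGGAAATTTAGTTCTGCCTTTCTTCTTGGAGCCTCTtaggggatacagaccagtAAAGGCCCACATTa

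Klra4: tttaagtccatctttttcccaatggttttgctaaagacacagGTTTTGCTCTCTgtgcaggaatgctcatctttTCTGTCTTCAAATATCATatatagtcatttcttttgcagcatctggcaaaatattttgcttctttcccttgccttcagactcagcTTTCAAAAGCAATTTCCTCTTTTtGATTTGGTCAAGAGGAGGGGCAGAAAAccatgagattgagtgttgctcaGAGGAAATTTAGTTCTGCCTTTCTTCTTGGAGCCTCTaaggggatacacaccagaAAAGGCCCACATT

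The windows matched at 259 of 299 aligned bases (86.6%), and the longest identical run was 37 bases. Windows of the other Ly49 genes matched that of Klra8 at 75% to 85.2% of aligned bases. Shared sequence limits how far reads can be assigned: 14.4% of the stretches of 100 bases in Klra8 transcripts also occurred in another Ly49 transcript, against 0 for Klra4 and Klra1 and 1.83% for Klra7. Of the Klra genes in the table, Klra8 had the largest such share. How far this changed its level was not tested.

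The other Ly49 genes were less restricted to cluster 8 than Klra8 and Klra4. Klra7 (Ly49G), an inhibitory receptor, was at 833, 279 and 1026 CPM in clusters 8, 3 and 11 of TG mice and at 696, 24.0 and 324 CPM in WT mice. Klra9 (Ly49I), another inhibitory member, was at 476, 351 and 684 CPM in TG and at 788, 285 and 2095 CPM in WT. Cluster 11 was thus higher than cluster 8 for Klra9 in both genotypes. Klra3 (Ly49C) was highest in cluster 8, at 234 CPM for TG and 236 for WT, with 30.0 to 95.9 CPM in the other sets. Klra5 (Ly49E), known from fetal and liver-resident cells, had the opposite order, with 15.9 CPM in cluster 8 and 68.4 in cluster 3 of TG mice and 23.4 and 440.1 CPM in WT mice. Of 12 Ly49 genes looked for, Klra13-ps was not in the table, Klra17 had 0 UMIs in cluster 8, and Klra2 was at 1.77 and 2.76 CPM.

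**Figure D2:**
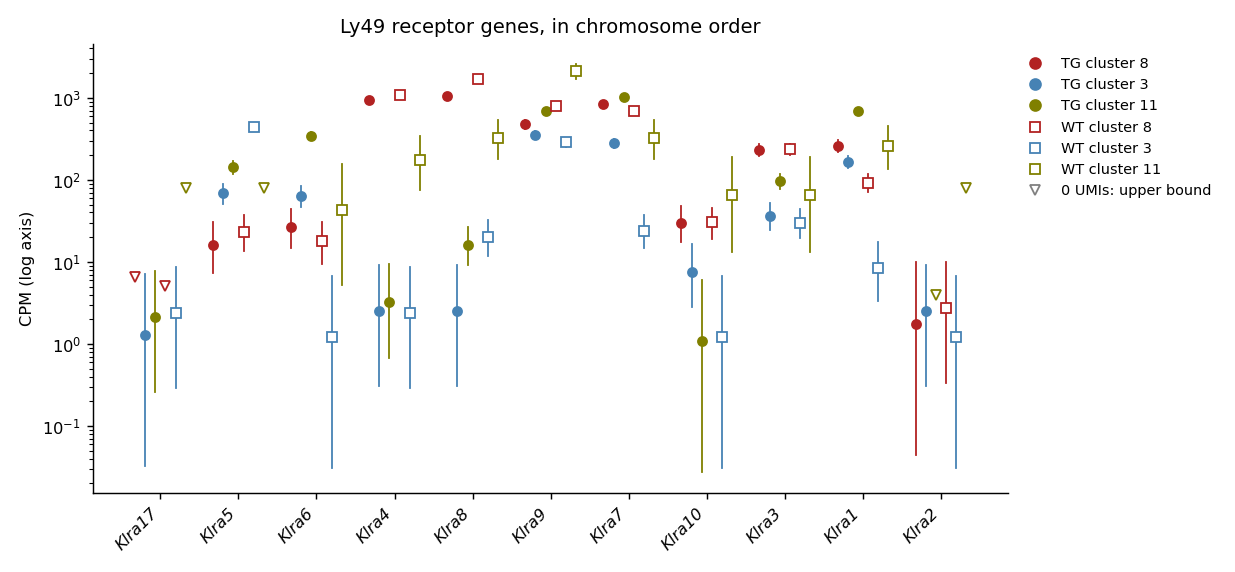
Level of each Ly49 gene in the 3 NK clusters of TG (filled) and WT (open) mice, in the order of the genes on chromosome 6, as CPM on a log axis with exact 95% Poisson intervals and triangles for upper bounds. Klra4 and Klra8 lay between 945 and 1711 CPM in cluster 8 and at 324 CPM or less elsewhere, whereas Klra9 and Klra7 were found in all sets.

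Single cells of cluster 8 differed in the Ly49 genes they held. Each cell was thinned to 1000 UMIs, so that all cells had equal depth. Klra8 was then detected in 35.3% of the TG cells (27.7 to 43.4) and 53.7% of the WT cells (47.7 to 59.5), and Klra4 in 43.8% (35.8 to 52.0) and 46.0% (40.1 to 51.9). Before thinning these shares were 48.4% and 59.2% for Klra8 and 53.6% and 55.7% for Klra4, against at most 0.5% in mature B cells, which should lack both. The thinned share was higher for Klra8 in WT than in TG cells and the intervals for Klra4 overlapped. At least 3 Ly49 genes were detected in 29.4% of the TG cells (22.3 to 37.3) and 35.2% of the WT cells (29.7 to 41.0), and none in 13.1% and 8.01%. The mean was 1.89 Ly49 genes per TG cell and 2.09 per WT cell at this depth, against 0.578 and 0.418 in cluster 3 and 1.5 and 1.59 in cluster 11. Before thinning, at least 3 Ly49 genes were detected in 61.4% of TG and 59.2% of WT cells of cluster 8, and none in 4.58% and 5.23%. The shares and the order of TG and WT thus depended on depth.

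Klra4 was found about as often in WT cells with Klra8 as in those without it. It was detected in 70 of 154 thinned WT cells with Klra8 (45.5%) and in 62 of 133 without (46.6%). In TG the values were 28 of 54 (51.9%, 37.8 to 65.7) and 39 of 99 (39.4%, 29.7 to 49.7), whose intervals overlap. At full depth 73.9% of TG and 80.8% of WT cells held at least 1 of these receptors.

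The share of cluster 8 among all named CD45+ cells was 3.29% for TG (2.80 to 3.85) and 3.94% for WT (3.51 to 4.41), a difference of -0.649 percentage points whose interval ran from -1.32 to 0.0474. Among all cells named NK it was 20.2% for TG (17.4 to 23.2) and 46.7% for WT (42.7 to 50.7), a difference of -26.5 points (-31.3 to -21.6). Most TG cells of that denominator held T cell UMIs, as given above. Without cells that held at least 2 UMIs of Cd3e, Trac and Cd4, an alternative chosen after seeing the data, cluster 8 made up 106 of the remaining 136 cells in TG (77.9%, 70.0 to 84.6) and 270 of the remaining 559 in WT (48.3%, 44.1 to 52.5), a difference of 29.6 points (20.9 to 37.0). The choice of denominator thus set the size and the direction of the difference. Cells named NK were 16.3% of TG and 8.45% of WT cells, and those with fewer than 2 such UMIs were 2.93% and 7.68%. TG cells were deeper, which makes such a UMI minimum easier to reach. Cd4, a gene of this filter, was itself detected in 32.7% of TG and 2.1% of WT cells of cluster 8. These intervals leave out variation between mice and captures.

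Against cluster 3, cluster 8 was higher in genes of conventional NK cells and lower in genes of ILC1. A gene was counted as different when its level differed at least 2-fold among genes with at least 50 UMIs over both sets. This held for 392 of 4609 genes in TG (8.51%), with 140 higher (3.04%) and 252 lower (5.47%), and for 441 of 5092 in WT (8.66%), with 165 higher (3.24%) and 276 lower (5.42%). The median log2 ratio of all these genes was -0.07 in TG and -0.05 in WT. These shares and medians are the background for the gene lists compared with cluster 3 below. All 5 conventional NK markers were at least 2-fold higher in both genotypes, with a median log2 ratio of 7.18 in TG and 6.39 in WT. These markers describe how the cells were named and clustered and are no separate evidence.

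The largest ratios of cluster 8 over cluster 3, averaged over both genotypes, were led by Klra4, Cma1, Klra8, Serpinb9b and S1pr5. Klra4 had log2 ratios of 8.54 in TG (6.68 to 11.59) and 8.81 in WT (6.95 to 11.86). Klra8 had 8.69 in TG (6.83 to 11.74) and 6.39 in WT (5.71 to 7.18). Both ratios rest on 2 UMIs of cluster 3 in TG. Cma1 was at 423 CPM in cluster 8 and 1.27 in cluster 3 of TG mice and at 249 and 0 CPM in WT mice, which sets a log2 ratio of at least 6.12 in WT against a floor of 3 UMIs. S1pr5, the sphingosine phosphate receptor that lets NK cells leave tissues, was at 290.1 and 86.2 CPM in TG (log2 ratio 1.75, 1.34 to 2.18) and at 204 and 0 CPM in WT (log2 ratio of at least 5.82). Itgam (CD11b), which marks mature NK cells, was at 495 and 11.4 CPM in TG and at 368 and 38.4 CPM in WT. For each of these genes cluster 8 was the higher set in both genotypes.

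ILC1 markers were lower in cluster 8 than in cluster 3. Of 11 markers, 7 reached 50 UMIs in TG and 11 in WT, all of them lower in cluster 8, with 6 and 11 at least 2-fold lower and medians of -3.39 and -3.36. Itga1, which encodes CD49a, was at 28.3 CPM in cluster 8 and 516 in cluster 3 of TG mice and at 5.51 and 492 CPM in WT mice. Its log2 ratios were -4.19 (-5.01 to -3.47) and -6.48 (-8.36 to -5.11). Cxcr6 was at 12.4 and 131 CPM in TG and 17.9 and 338 CPM in WT, and Tnfsf10, which encodes TRAIL, was at 17.7 and 185 CPM in TG and 11 and 335 CPM in WT. Xcl1, a chemokine gene that NK cells also use, was at 253 and 822 CPM in TG and 542 and 1785 CPM in WT. The 11 markers summed to 950 and 2899 CPM in TG and to 1280.1 and 6091 CPM in WT, with Xcl1 and Rgs1 holding most of the UMIs of cluster 8.

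Other genes that were lowest in cluster 8 relative to cluster 3 included signalling regulators. Socs2, a suppressor of cytokine signalling, was at 3.54 and 182 CPM in TG and 16.5 and 191 CPM in WT. Inpp4b, a lipid phosphatase, was at 8.85 and 188 CPM in TG and 20.7 and 212 CPM in WT. Rbpj, the DNA-binding partner of Notch, was at 37.2 and 364 CPM in TG and 44.1 and 266 CPM in WT. Asb2, Art2b and Cpne7 had log2 ratios of -1.87 to -4.71 over both genotypes. Cd3g was also among them, at 74.3 and 855 CPM in TG and 57.9 and 880 CPM in WT. The 11 T cell markers summed to 1415 CPM in cluster 8 and 7156 in cluster 3 of TG mice and to 1159 and 3377 CPM in WT mice, and all 9 counted members were lower in cluster 8 in both genotypes. Their part in the other differences was not tested. Without cells holding at least 2 UMIs of B cell genes or of Cd3e, Trac and Cd4, cluster 3 of TG mice kept 22 cells, and 185 of the 1521 genes then counted differed at least 2-fold (12.2%), of which 137 were higher and 48 lower in cluster 8.

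The cytotoxic genes did not share a direction against cluster 3. Of 20 genes, 17 were counted in TG, with 11 higher and 6 lower in cluster 8 and 5 at least 2-fold higher (median 0.61), and 18 were counted in WT, with 11 higher and 7 lower, 4 at least 2-fold higher and 2 at least 2-fold lower (median 0.14). Gzma was at 13685 CPM in cluster 8 and 6202 in cluster 3 of TG mice and at 9909 and 6436 CPM in WT mice. Gzmb had the opposite order, at 2059 and 2976 CPM in TG and 1335 and 3966 CPM in WT. Gzmc was at 5.31 and 26.6 CPM in TG and 2.76 and 204 CPM in WT. Serpinb9, which protects a killer cell from its own granzyme B, was higher in cluster 8, at 373 and 153 CPM in TG and 615 and 222 CPM in WT, and so was the serpin gene Serpinb6b, at 384 and 161 CPM in TG and 324 and 146 CPM in WT.

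Among 20 transcription factors of NK cells, Eomes, Zeb2, Irf8 and Klf2 were at least 2-fold higher in cluster 8 than in cluster 3 in both genotypes. Irf8, which NK cells need for responses to virus, was at 812 and 92.5 CPM in TG and 686 and 112 CPM in WT. Zeb2, which acts with T-bet in terminal maturation, was at 246 and 67.2 CPM in TG and 233 and 10.8 CPM in WT. Klf2, a regulator of trafficking, was at 708 and 203 CPM in TG and 531 and 79.2 CPM in WT. Tbx21 (T-bet), which both NK cells and ILC1 need, differed less, at 421 and 237 CPM in TG and 263 and 207 CPM in WT. Over the list 10 of 18 counted members were higher in TG and 12 of 19 in WT, with medians of 0.21 and 0.51. At least 2-fold higher were 4 factors in TG and 6 in WT, and 2 were at least 2-fold lower in each. Tox was lower in cluster 8 (42.5 and 92.5 CPM in TG, 56.5 and 177 CPM in WT).

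Of the counted NKG2, CD94 and NKR-P1 receptors, 9 of 12 were higher in cluster 8 than in cluster 3 in TG (median 0.22) and 7 of 12 in WT (median 0.07). At least 2-fold higher were 4 in TG and 2 in WT, and at least 2-fold lower were 0 and 2. Of the other NK surface receptors, 7 of 11 were lower in TG (median -0.73) and 10 of 11 in WT (median -0.85). Ncr1, Klrb1c and Klrk1, which encode NKp46, NK1.1 and NKG2D and are shared with ILC1, had log2 ratios of 0.80, 0.15 and 0.12 in TG and 0.04, -0.00 and 0.11 in WT. Cd7 was at 853 and 4119 CPM in TG and 648 and 4198 CPM in WT, and Cd160 at 115 and 674 CPM in TG and 92.3 and 543 CPM in WT. Both were among the 5 other surface receptors at least 2-fold lower in each genotype. Signalling adaptors had no common direction, with 8 higher and 6 lower in TG (median 0.02) and 5 higher and 10 lower in WT (median -0.25). Syk, the kinase downstream of DAP12, was at 150.4 and 39.3 CPM in TG and 172 and 86.4 CPM in WT. Cytokine receptors were also divided, with 6 of 12 counted members higher in TG (median 0.06) and 6 of 13 in WT (median -0.02). Both receptor chains for IL-18 were higher in cluster 8, with Il18r1 at 195 and 39.3 CPM in TG and 351 and 75.6 CPM in WT, and Il18rap at 442 and 67.2 CPM in TG and 328 and 80.4 CPM in WT. Il7r was lower, at 17.7 and 114 CPM in TG and 77.2 and 263 CPM in WT.

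Of 10 counted secreted factors, 4 were higher and 6 lower in cluster 8 than in cluster 3 in TG, with 2 at least 2-fold higher and 4 at least 2-fold lower (median -0.35). In WT 5 were higher and 5 lower, with 1 and 4 past 2-fold (median -0.34). Ccl3 was at 1592 and 326 CPM in clusters 8 and 3 of TG mice and at 1213 and 570 CPM in WT mice. Ifng differed less, at 315 and 272 CPM in TG and 328 and 257 CPM in WT. Interferon-γ and MHC class I genes were slightly lower in cluster 8, with 18 of 18 counted genes lower in TG (median -0.40) and 18 of 19 in WT (median -0.31), but only 2 and 1 of them at least 2-fold. Of all counted genes, 5.47% in TG and 5.42% in WT were at least 2-fold lower, with medians of -0.07 and -0.05. Type I interferon-stimulated genes had medians of -0.43 and -0.41. The TGF-β pathway (-0.00 and -0.27), immediate early genes (-0.00 and 0.01), cell cycle genes (-0.03 and 0.04) and survival genes (-0.02 and 0.15) had medians closer to that of all genes. Mki67, a marker of dividing cells, was at 19.5 CPM for TG and 17.9 for WT cells of cluster 8.

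The surface proteins separated the clusters in the same direction as the integrin transcripts. CD49a took 2.29% of the antibody UMIs of cluster 8 in TG mice and 0.981% in WT mice, against 18.9% and 10.9% in cluster 3, which gave log2 ratios of -3.04 (-3.11 to -2.98) and -3.47 (-3.54 to -3.41). CD49b took 8.41% and 4.99% in cluster 8 and 2.19% and 0.526% in cluster 3, with log2 ratios of 1.94 (1.89 to 1.99) and 3.24 (3.18 to 3.31). On the scale of the deposited centred log ratio, which compares each antibody with the others of the same cell, CD49b lay above CD49a in 139 of 153 TG cells (90.8%) and 273 of 287 WT cells (95.1%) of cluster 8. In cluster 3 this held for 12 of 263 TG cells (4.56%) and 8 of 306 WT cells (2.61%). In cluster 11 it held for 65 of 343 TG cells (19.0%) but 21 of 22 WT cells (95.5%), so cluster 8 resembled the WT cells of cluster 11 in this feature and not the TG cells.

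**Figure D3:**
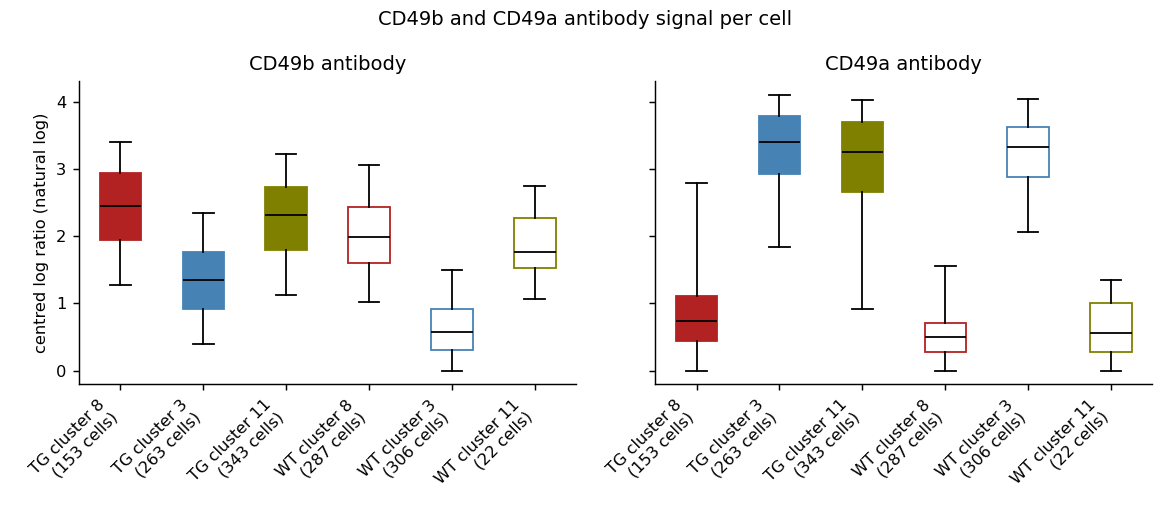
Centred log ratio (natural log) of the CD49b and CD49a antibodies per cell in each NK cluster and genotype, with the median as a line, quartiles as the box and the 5th to 95th percentile as whiskers. Cluster 8 had a CD49b median of 2.45 in TG and 1.99 in WT and a CD49a median of 0.744 and 0.504, while cluster 3 had CD49a medians of 3.40 and 3.32.

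Antibodies to red cell markers took large shares in the WT library, which lowers the shares of the others. TER-119, a red cell marker, took 9.85% and CD24 took 10.7% of the antibody UMIs of cluster 8 in WT mice, against 0.109% and 0.466% in TG mice, and they took 26.1% and 23.6% in cluster 3 of WT mice. Differences of medians of the centred log ratio, which depend less on such antibodies, were -2.66 in TG and -2.82 in WT for CD49a and 1.11 and 1.42 for CD49b, in the same direction. CD9, a tetraspanin, and CD45R, which NK cells can carry, were higher in cluster 8 than in cluster 3, with 1.95% and 1.07% for CD9 in TG, 3.36% and 0.984% in WT, 5.2% and 0.621% for CD45R in TG, and 2.40% and 0.458% in WT. CD122 and CD335 (NKp46) took under 1% in each NK set.

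Against cluster 11, cluster 8 was higher in Klra4, Klra8 and Eomes and lower in Ly6c2 and Klrg1 in both genotypes. In TG mice 282 of 4753 genes differed at least 2-fold between clusters 8 and 11 (5.93%), with 120 higher (2.52%) and 162 lower (3.41%) in cluster 8. In WT mice 452 of 2932 did (15.4%), with 330 higher (11.3%) and 122 lower (4.16%), but that comparison rests on 22 cells, and TMM scaling, which moved the median of all genes by 0.24, gave 500 higher and 54 lower. All 5 conventional NK markers were at least 2-fold higher in cluster 8 in TG mice (median 4.42) and 3 of 5 in WT mice (median 1.83). Of 10 maturation genes in TG, 4 were higher and 6 lower in cluster 8 (median -0.39), and in WT 5 of 9 were higher and 4 lower (median 0.03). The median of all genes was -0.02 in TG and 0.05 in WT.

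Klra4 was 8.19 (6.64 to 10.47) higher in cluster 8 than in cluster 11 on the log2 scale in TG mice and 2.64 (1.65 to 3.86) higher in WT mice. Car2, a carbonic anhydrase gene, was at 281 and 1.08 CPM in TG and 270.1 and 21.6 CPM in WT. Klri2, which encodes a receptor of the NK gene complex, was at 529 and 1.08 CPM in TG and 639 and 432 CPM in WT, and Irf8 was at 812 and 71.1 CPM in TG and 686 and 562 CPM in WT. For Klri2 and Irf8 the TG cells of cluster 11 were low and the WT cells of cluster 11 closer to cluster 8. Car2 was below the floor of 3 UMIs in cluster 11 of both genotypes, so its levels there cannot be ordered. Ccr2, a chemokine receptor, was at 428 and 8.62 CPM in TG and 544 and 129.6 CPM in WT. Eomes had log2 ratios of 2.72 (2.29 to 3.17) in TG and 1.83 (0.89 to 2.97) in WT. Ighm, a B cell gene, was also among the 10 highest (log2 ratios of 1.44 and 3.06), and B cell markers summed to 3855 CPM in cluster 8 and 1446 in cluster 11 of TG mice and to 748 and 151 CPM in WT mice. Without the cell of each set with most Igkc UMIs the sums were 1590 and 1355 CPM in TG and 638 and 135 CPM in WT. Whether B cell RNA has a part in other ratios was not tested.

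At the low end of the ratios of cluster 8 to cluster 11, 5 genes were set aside, namely Trac, Trbc2, Itgb7, Zap70 and Gramd1a. In at least 1 genotype, 3 cells of cluster 11 held over 50% of their UMIs. Cluster 11 had only 22 cells in WT mice. In TG mice it had 343 cells, of which 335 held at least 2 UMIs of Cd3e, Trac and Cd4. Of the genes with at least 100 UMIs in each genotype that were not set aside, Ly6c2 had the lowest ratio of cluster 8 to cluster 11, averaged over both. This gene, which marks mature NK and memory T cells, was at 614 and 2800.1 CPM in TG (log2 ratio -2.19, -2.36 to -2.03) and at 634 and 2182 CPM in WT (log2 ratio -1.78, -2.10 to -1.46). Klrg1, an inhibitory receptor of late maturation, was at 563 and 1128 CPM in TG and 227 and 475 CPM in WT. Klra9 had log2 ratios of -0.52 and -1.41 and S100a6 of -0.55 and -1.48. Cited2, Pycard, Cyth4, Sept9, Tcea1 and Fgl2 had ratios of -0.54 to -1.30. In cluster 11 of WT mice the 3 cells with most UMIs held 27.8% to 50% of the UMIs of each of these genes. T cell markers summed to 5561 CPM in cluster 11 and 1415 in cluster 8 of TG mice, with 6 of 8 counted members at least 2-fold lower in cluster 8.

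Within cluster 8, fewer genes differed between TG and WT cells than between clusters. A difference of at least 2-fold was found for 128 of 4336 genes (2.95%), with 54 higher (1.25%) and 74 lower (1.71%) in TG, against 2.66% of genes in mature B cells, 5.07% in cluster 3 and 24.5% in cluster 11. Most TG but few WT cells of clusters 3 and 11 held at least 2 UMIs of Cd3e, Trac and Cd4, as given above. TG over WT ratios of these 2 clusters, here and below, thus do not compare like cells. After the ratio of each gene in mature B cells was subtracted, 113 genes of cluster 8 were higher and 57 lower. The median of all genes was -0.05. None of the 5 conventional NK markers differed 2-fold, with Eomes at 391 CPM in TG and 692 in WT (log2 ratio -0.82) and Prf1 at 1364 and 1078 CPM (0.34). Klra8 (-0.71) and Klra4 (-0.19) were lower in TG, and Serpinb9b was higher (0.32). Cytotoxic granule genes had a median of 0.25, with 12 of 17 counted members higher in TG and 0 past 2-fold. Transcription factors had a median of 0.07, with Tbx21 at 421 and 263 CPM (0.68) and Tcf7, a factor of early NK and memory cells, at 83.1 and 193 CPM (-1.21) as the only member past 2-fold.

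Among genes with at least 100 UMIs that were not set aside, the highest TG over WT ratio of cluster 8 belonged to Cx3cr1, the fractalkine receptor of mature NK cells and effector T cells. It was at 354 CPM in TG and 39.96 in WT, a log2 ratio of 3.15 (2.58 to 3.76), and after thinning it was detected in 24.8% of the TG cells (18.2 to 32.5) and 3.1% of the WT cells (1.4 to 5.9). Klrg1 was at 563 and 227 CPM (1.31, 1.03 to 1.59), and its thinned share was 36.6% and 19.9%. Cmklr1, the chemerin receptor, was at 166 and 66.1 CPM (1.33, 0.81 to 1.86), and Klra1 (Ly49A) at 262 and 92.3 CPM (1.5, 1.08 to 1.94). These 4 genes code for surface receptors and were higher in TG. All 4 were also higher in TG than in WT cells of cluster 3, with log2 ratios of 6.56 for Klrg1 and 4.31 for Klra1. Those cells were not alike, since 241 of 263 TG but 35 of 306 WT cells held at least 2 UMIs of Cd3e, Trac and Cd4.

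Some of these ratios recurred in cells that should lack the genes. In mature B cells, which should lack Cx3cr1 and Klrg1, the same log2 ratios were 3.08 for Cx3cr1 at 21.1 and 2.5 CPM, 2.11 for Klrg1 at 24.1 and 5.57 CPM, and 1.40 for Klra1 at 11 and 4.17 CPM. The levels in B cells were thus far below those in cluster 8, while the ratios were similar or larger. Without cells of cluster 8 that held T or B cell UMIs as above, which left 100 TG and 267 WT cells, the ratio of Cx3cr1 was 3.01 and that of Klrg1 was 1.26. After subtraction of the ratio in mature B cells, Cx3cr1 was at 0.07 and Klrg1 turned to -0.81. That subtraction uses ratios and not levels, so it cannot give the part that RNA of other cells has in cluster 8. Where the UMIs of these genes in mature B cells came from was not tested.

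**Figure D4:**
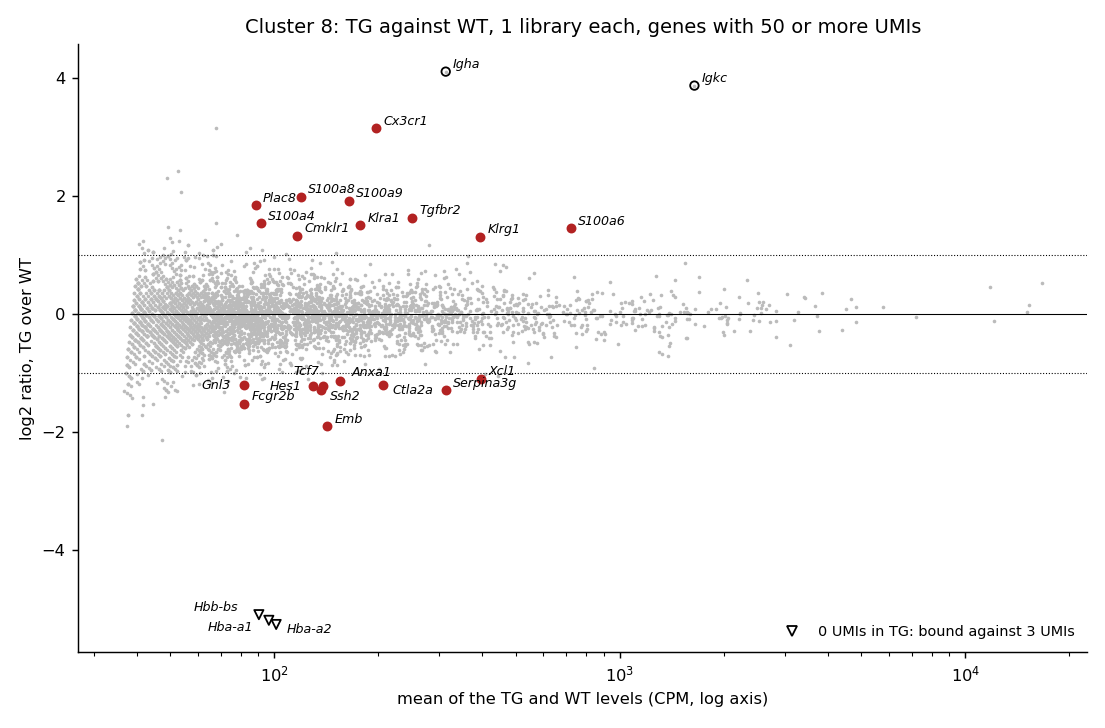
Log2 ratio of TG over WT in cluster 8 against the mean level (CPM, log axis) for genes with at least 50 UMIs, 1 library each, with the named genes in red, genes whose UMIs lay mostly in 3 cells as open circles, and genes with 0 UMIs in TG as triangles at their bound. Most genes lay between the dotted lines at 2-fold, Cx3cr1 was at 3.15, and the 3 haemoglobin genes were at -5.09 to -5.25 or below.

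Tgfbr2, the mouse gene of the receptor whose human form is the transgene, was at 379 CPM in TG and 123 in WT cells of cluster 8, a log2 ratio of 1.63 (1.26 to 2.00). It was also higher in TG cells of cluster 3 (1.24) and cluster 11 (1.94), and it was at 378 and 221 CPM in CD4 T cells and 296 and 153 CPM in CD8αβ T cells. In mature B cells it was at 218 and 232 CPM (-0.09, -0.23 to 0.06). In plasmacytoid dendritic cells, which had Cd4 at 659 and 494 CPM, it was at 196 and 98.1 CPM (1.00, 0.50 to 1.48). The higher level was thus not limited to NK and T cells. It was not clear in macrophages (0.38, -0.13 to 0.88), monocytes (-0.40, -0.97 to 0.16) or immature B cells (-0.20, -0.55 to 0.15). The intervals of neutrophils and basophils also included 0. The deposited tables hold no separate entry for the human transgene, and whether its transcripts were counted as Tgfbr2 was not tested. Cd4, whose promoter drives the transgene, was at 122 CPM in TG and 13.8 in WT cells of cluster 8 (3.15), and at 25.3 and 37.0 CPM in mature B cells. Cells with Cd4 UMIs were 32.7% of TG and 2.1% of WT cells of cluster 8, against 5.1% and 5.3% of B cells. After thinning these shares were 11.8% and 0.7% in cluster 8 and 1.7% and 1.9% in B cells. The CD4 antibody took 1.68% of antibody UMIs in TG and 0.990% in WT.

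Of the 10 counted genes of the TGF-β pathway, 4 were higher and 6 lower in TG, with Tgfbr2 alone past 2-fold (median -0.15). Smad7, a target and inhibitor of the pathway, was at 70.8 CPM in TG and 139 in WT (-0.98), and it was also lower in mature B cells (-0.56, -0.72 to -0.40) and in CD8αβ T cells (-0.99). Smad2, Smad3 and Smad4, which carry the signal, had log2 ratios of 0.14, -0.12 and -0.18.

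Of the S100 genes named by the rule, S100a8 was at 191 CPM in TG and 48.2 in WT (1.99) and S100a9 at 260.1 and 68.9 CPM (1.92), both known from neutrophils and higher in TG, and their 3 highest TG cells held 42.6% and 40.8% of the UMIs. They were higher in TG in mature B cells as well (0.89 and 1.04), and without cells holding T or B cell UMIs the ratios were 1.38 and 1.43. S100a8 was also higher in TG in CD8αα (2.09), CD4 (1.65), CD8αβ (1.44) and NKT cells (1.41). It was higher as well in monocytes (0.99), neutrophils (0.58), plasmacytoid dendritic cells (1.62) and immature B cells (1.33), but not in macrophages (-0.31, -0.71 to 0.07). The higher level was thus not limited to lymphocytes. In cluster 3 the 2 myeloid markers counted were both at least 2-fold higher in TG (median 1.87). S100a8 and S100a9 held most of the UMIs of the 8 measured myeloid markers of cluster 8, which summed to 504 CPM in TG and 197 in WT. The other 6 markers summed to 53.1 CPM in TG (35.8 to 75.8) and 79.9 in WT (60.7 to 103), and Ly-6G antibody had 0 UMIs in every NK set. Whether myeloid RNA has a part in these ratios was not tested. S100a6 was at 1059.6 and 387 CPM (1.45, 1.25 to 1.66) and S100a4 at 136 and 46.9 CPM (1.54, 0.94 to 2.17), and neither was higher by that much in cluster 3, where the ratios were 0.08 and -0.45. Plac8 was at 138 and 38.6 CPM (1.84).

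The lowest TG over WT ratios among genes with at least 100 UMIs that were not set aside belonged to genes of different functions. Emb, which encodes the adhesion protein embigin, was at 60.1 CPM in TG and 225 in WT (-1.90, -2.48 to -1.36), with a like ratio in mature B cells (-1.72). Fcgr2b, the inhibitory Fc receptor, was at 42.5 and 121 CPM (-1.51, -2.23 to -0.85), with -0.17 in B cells. Serpina3g was at 182 and 445 CPM (-1.29, -1.62 to -0.96), while in B cells it was higher in TG (1.85). Xcl1 was at 253 and 542 CPM (-1.10, -1.38 to -0.82) and was lower in TG in cluster 3 as well (-1.12). Tcf7 was higher in TG in cluster 3 (1.36) and lower in B cells (-2.50), so its direction in cluster 8 was not shared by all cells. Hes1, Ssh2, Ctla2a, Gnl3 and Anxa1 had log2 ratios of -1.13 to -1.28. Subtraction of the B cell ratio turned Tcf7 to 1.29 and Ctla2a to 0.46.

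**Figure D5:**
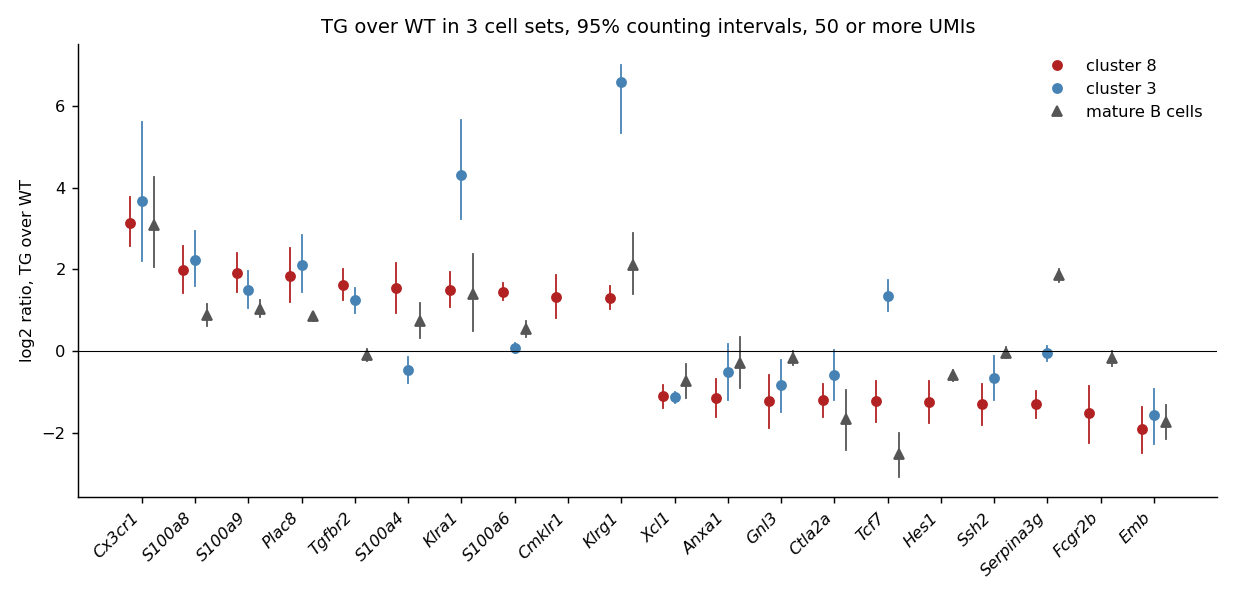
Log2 ratio of TG over WT for the 20 named genes of cluster 8, beside the ratios of the same genes in cluster 3 and in mature B cells, with exact 95% intervals for counting error. Tgfbr2 was at 1.63 in cluster 8, 1.24 in cluster 3 and -0.09 in mature B cells, whereas Cx3cr1 was above 3 in each of the 3 sets. The TG and WT cells of cluster 3 differed in UMIs of Cd3e, Trac and Cd4, so its ratios do not compare like cells.

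Of 15 counted trafficking and residency genes, 7 were higher and 8 lower in TG (median -0.01), and of 6 survival genes 3 were higher and 3 lower (median -0.12). Members chosen after their values were seen were Il7r, a cytokine receptor, and the trafficking genes Cxcr3 and S1pr1. Il7r was at 17.7 CPM in TG and 77.2 in WT (-2.12), Cxcr3 at 30.1 and 73.0 CPM (-1.28), and S1pr1 at 28.3 and 63.4 CPM (-1.16). S1pr5 (0.51) and Itgam (0.43), which mark maturation, were slightly higher in TG, and the 10 maturation genes had a median of 0.42 with 8 higher and 2 past 2-fold. In mature B cells 7 of these genes were counted, with a median of 0.32, 5 higher and 2 past 2-fold. NKG2, CD94 and NKR-P1 receptors had a median of -0.19, with 10 of 12 counted members lower in TG and 0 of those past 2-fold. Cytokine receptors (-0.25), secreted factors (-0.03), type I interferon-stimulated genes (-0.21) and interferon-γ and MHC class I genes (0.08) lay within 0.20 of the median of all genes.

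Genes of other lineages differed between TG and WT cells of cluster 8. B cell markers summed to 3855 CPM in TG and 748 in WT, and a single TG cell held 1277 Igkc UMIs, without which the TG sum was 1590 CPM. Igkc was detected in 92.2% of TG and 25.4% of WT cells, and after thinning in 52.9% and 12.9%. In cluster 3 it was detected in 89.4% of TG and 28.1% of WT cells before thinning. Its TG over WT log2 ratio was 2.17 in CD4 T cells and 3.25 in NKT cells, but -1.32 in CD8αβ T cells. Erythroid markers summed to 0 CPM in TG and 641 in WT, where the 3 highest cells held at least 99.3% of Hba-a1, Hba-a2 and Hbb-bs. The TG library file also held 0 UMIs of these 3 genes in cluster 8, and 9 of Hba-a1, 5 of Hba-a2 and 16 of Hbb-bs over all named TG cells. The 5 genes Igkc, Igha, Hba-a1, Hba-a2 and Hbb-bs were therefore set aside from the named genes of TG against WT. Of 11 T cell markers, 8 of 9 counted members were higher in TG (median 0.36), with sums of 1415 and 1159 CPM. Hepatocyte markers summed to 0 and 1.38 CPM.

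Of the antibodies, CD49d showed the largest difference between TG and WT cells of cluster 8 outside the erythroid markers. CD49d, the integrin α4 chain, took 15.3% of antibody UMIs in TG and 5.32% in WT, a log2 ratio of 1.52 (1.49 to 1.56), and its median centred log ratio was 3.05 and 2.02. Its transcript Itga4 was at 1152 and 1018 CPM (0.18), so the protein readout differed more than the RNA. In mature B cells CD49d was lower in TG (log2 ratio -0.28). NK1.1 took 3.61% and 1.41% (1.35, 1.28 to 1.42), whereas its gene Klrb1c was at 1235 and 1418 CPM (-0.20). CD45R (1.11) and CD49a (1.22) also took larger shares in TG, and CD9 a smaller share (-0.78). The WT shares are lowered by TER-119 and CD24, as given above.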

How the data were processed

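Liver cells were profiled with BD Rhapsody cartridges. Per the labels, the authors used the BD WTA Multiplex Rhapsody Analysis Pipeline 1.9, and per the methods reads were aligned to mm10 with STAR. The deposited tables hold UMI counts per gene (13528) and antibody (49), the antibody centred log ratios on the natural log scale, and the mitochondrial share as a percent. The filter on cells was not given in the sources used here. The table lists 630 genes at 0 in all TG cells and 365 in all WT cells. Some of them held UMIs in the library file, such as Klrc3, with 2 UMIs in TG cells of cluster 8, and the rule behind this was not given in the sources used here.

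Each genotype was 1 library and its cells came from the deposited names. Counts were summed per cell set. Levels have exact Poisson intervals, log2 ratios exact conditional binomial intervals, shares Clopper-Pearson intervals and their differences Newcombe intervals. No p-value was computed. A value of 0.5 UMIs was added where a sum was 0, and bounds used a floor of 3 UMIs. The named genes were the members of the lists and, per comparison, the 10 highest and 10 lowest ratios among genes with at least 100 UMIs (against clusters 3 and 11, averaged over both genotypes with the same sign in both). Receptor segments, sex genes and genes with over 50% of UMIs in 3 cells were set aside. The cluster, the lists and the named markers were chosen with earlier results of these data known. A gene and its antibody met by the rule are not reported here.

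Doublets were called with Scrublet (scanpy 1.11.5, expected rate 5%), which marked 0.839% of TG and 3.31% of WT cells, and were kept. Alternatives were TMM scaling (edgeR 4.0.16, R 4.3.3), totals that left out ribosomal and mitochondrial genes, equal weight per cell, other UMI minimums, thinning to 1000 UMIs, 3 filters on cells, and subtraction of the B cell ratio. Ratio arithmetic was tested on simulated data. Gene positions came from GENCODE M21 (GRCm38) and promoter windows from RefSeq. Python 3.11.15, numpy 2.4.6, scipy 1.17.1 and pandas 2.3.3 were used.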

Additional observations from a re-analysis of the deposited data

How the results depend on the processing

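No paired analysis was possible because each genotype was 1 library. With 1 library per genotype, no value could be checked by leaving out a replicate, and depth limited what could be counted, since only genes with at least 50 UMIs over both sets entered the counts. The counts of genes past 2-fold moved with the UMI minimum and with depth. With a minimum of 20 UMIs, no minimum, and thinning to 1000 UMIs, the 392 genes of cluster 8 against 3 in TG became 902, 3699 and 166, the 441 in WT 958, 3555 and 225, the 282 against cluster 11 in TG 734, 2917 and 127, the 452 in WT 1566, 4656 and 188, and the 128 of TG against WT 483, 3262 and 63. The number of genes counted moved too, and the genes past 2-fold were 6.95% to 28% of those counted with a minimum of 20 UMIs, 24.6% to 41.6% with none and 3.81% to 16.1% after thinning, against 2.95% to 15.4% as reported.

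Without cells holding at least 2 UMIs of B-lineage or T cell receptor genes, 189 of 1501 genes passed 2-fold against cluster 3 in WT (12.6%), 211 of 1320 against cluster 11 in WT (16%) and 76 of 1939 for TG against WT (3.92%). Against cluster 3 in WT, 128 of these were higher and 61 lower in cluster 8, while 165 were higher and 276 lower as reported. This filter left 2 and 0 cells of clusters 3 and 11 in TG and could not be run there. The filter on B-lineage genes, Cd3e, Trac and Cd4 was chosen after seeing the data. It gave 185 of 1521 against cluster 3 in TG (12.2%), 427 of 4667 in WT (9.15%), 580 of 2637 against cluster 11 in WT (22%) and 121 of 3615 (3.35%, with 38 higher and 83 lower) for TG against WT, and with 8 cells left it was not run against cluster 11 in TG. TMM scaling gave 554 against cluster 11 in WT, and subtracting the B cell ratio gave 170 for TG against WT. The cause of these moves was not tested.

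The share of cluster 8 differed by -26.5 points with cells named NK as the denominator and by 29.6 points, in the other direction, once those with at least 2 UMIs of Cd3e, Trac and Cd4 were left out. As a difference of centred log ratios, CD49a was -2.66 in TG and -2.82 in WT and CD49b 1.11 and 1.42. Without doublet calls CD49b was 2.00 and 3.38 as a log2 ratio of shares. The share of cells with Eomes, 64.7% in TG and 72.1% in WT, was 29.4% and 51.2% after thinning and 36.6% and 45.3% with at least 2 UMIs required, and that with Prf1, 91.5% and 82.2%, was 73.9% and 61.7%, and 78.4% and 62.0%.

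Some values changed sign. Under the T cell receptor filter the medians against cluster 3 in WT were 5.80 for erythroid markers and -0.038 for transcription factors. Under the filter on Cd3e, Trac and Cd4 the median of T cell markers against cluster 11 in WT was 0.74. After subtraction of the B cell ratio, TG against WT was 0.11 for erythroid markers, -0.81 for Klrg1, 1.29 for Tcf7 and 0.46 for Ctla2a, and Cx3cr1 was 0.07. For single genes 922 values kept their direction and size, 70 moved and 3 changed sign, and for list medians 720, 194 and 4.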
